A study of Homo sapiens with 6 samples.

Results

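LCN2 and 9 other inducible defence genes of the gut lining were followed in SW480 cells, a line from a human colorectal adenocarcinoma, with and without knockdown of HPSE, the gene of heparanase. The 10 genes were listed by name: LCN2, SAA1, SAA2, C3, CFB, PIGR, NOS2, SLPI, S100A8 and S100A9. LCN2 was chosen by its own normalized counts, which were higher in the knockdown cells of this same comparison, so its difference is given with its errors as a description, and nothing is read from a test of it. The other 9 genes were listed for their role in epithelial defence, but with earlier results of these data known. The deposited table holds 59192 features, and 8 of the 10 genes could be matched to a row by Ensembl identifier. CFB and NOS2 were not analysed here.

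RNA was sequenced from 3 libraries of SW480-KD1 and 3 of SW480-NC, taken from independent experiments. Both lines stably carry Cas9 and a lentiviral guide vector with EGFP. The guide is directed at HPSE in SW480-KD1, which the sample labels call SW480-45, and is a control guide in SW480-NC. Only 1 guide against HPSE was sequenced, and whether the lines are clonal is not given in the sources used here. The values are normalized counts, that is, gene counts divided by a size factor for each library, and the libraries hold 33221323 to 39802365 reads.

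Epithelial cells answer bacterial products and the cytokines IL-1, IL-17, IL-22 and TNF by secreting defence proteins, largely through NF-kappa-B, its cofactor NFKBIZ, C/EBP factors and STAT3. Lipocalin 2, the product of LCN2, binds bacterial siderophores and so withholds iron. The other products act beside it: serum amyloids (SAA1, SAA2), complement (C3, CFB), the carrier of IgA into the lumen (PIGR), nitric oxide (NOS2), a protease inhibitor (SLPI) and calprotectin (S100A8 with S100A9). In colon, LCN2 and calprotectin are best known as markers of inflammation.

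LCN2 (ENSG00000148346) lies on the plus strand of chromosome 9, at 128149071 to 128153455 in the GENCODE 29 annotation of GRCh38. PIGR (ENSG00000162896) lies on the minus strand of chromosome 1, at 206928518 to 206946466. The DNA just before the RefSeq start of these genes (128149453 for LCN2, 206946466 for PIGR; RefSeq, GRCh38.p14) is shown for the gene of the list with most reads and for one with few. The LCN2 stretch, chr9:128149265-128149440 on the plus strand, is intronic in the GENCODE transcript that starts furthest upstream and precedes all its other starts. The PIGR stretch is chr1:206946467-206946716, read on the minus strand. Capitals mark every match, on either strand, to the kappa-B consensus (NF-kappa-B), TTNNGNAA (C/EBP), TTCNNNGAA (STAT) and TGANTCA (AP-1).
LCN2: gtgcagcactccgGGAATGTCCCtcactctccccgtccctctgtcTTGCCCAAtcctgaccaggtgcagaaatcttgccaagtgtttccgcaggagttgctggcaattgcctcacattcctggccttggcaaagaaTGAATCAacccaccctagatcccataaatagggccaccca
PIGR: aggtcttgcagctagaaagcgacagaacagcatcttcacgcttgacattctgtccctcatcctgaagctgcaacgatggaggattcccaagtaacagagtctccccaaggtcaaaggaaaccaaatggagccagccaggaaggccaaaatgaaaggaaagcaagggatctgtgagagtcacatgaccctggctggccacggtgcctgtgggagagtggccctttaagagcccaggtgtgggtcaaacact

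In LCN2, the kappa-B consensus matched once, on the minus strand, the match to TTNNGNAA was TTGCCCAA and the match to TGANTCA was TGAATCA. The PIGR stretch held no match to any of these motifs. Of 35116 RefSeq promoter windows of 250 bases before the start, 9.96% held the kappa-B consensus, 33.2% TTNNGNAA and 6.57% each TTCNNNGAA and TGANTCA. Of the other members with a RefSeq promoter entry, CFB held the kappa-B consensus and TTCNNNGAA, S100A9 held TTNNGNAA, and S100A8 held TTNNGNAA before 2 of its 3 starts. A match of letters is a description and not a bound site.

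For HPSE itself the libraries held 136, 172 and 146 normalized counts in SW480-KD1 and 269.9, 295 and 246 in SW480-NC. Its limma log2 fold change, which is positive where SW480-KD1 is higher and is taken on log2(normalized count + 1), was −0.83 with an SE of 0.14 and an adjusted p of 0.0547. The RNA of the target was thus lower in every knockdown library, by less than 2-fold. The paper judged the knockdown by western blot of HPSE protein and described it as efficient. Protein is not measured by these data.

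The 3 knockdown libraries held 361, 357 and 353 normalized counts of LCN2, and the 3 control libraries 165, 100.4 and 155. All 3 knockdown libraries lay above all 3 control libraries, and the lowest knockdown value was far from the highest control value. The means were 357 ± 3.66 (SD, n = 3) and 140.2 ± 34.8 (SD, n = 3), a ratio of 2.55 and a log2 fold change of 1.37 with a standard error of 0.19. In whole reads, the counts behind these values were 342, 395 and 375 against 158, 104 and 146, and the counting error alone gives the ratio a 95% interval of 2.29 to 2.88 (exact binomial). In bulk RNA, fewer expressing cells and less RNA per cell cannot be told apart. As background, 0.802% of the 21703 features tested had an adjusted p under 0.05 from limma (0.332% with higher values in SW480-KD1), and 11.4% had all SW480-KD1 libraries above all SW480-NC libraries. LCN2 was the only one of the 8 genes with a row that reached the mean of 10 normalized counts needed for the test.

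The SD of LCN2 differed in size between the cell lines. Each SD rests on 3 libraries, and LCN2 was chosen by these same values, so nothing is read from the difference in spread. In SW480-KD1 the SD of 3.66 was smaller than the 18.6 normalized counts that counting error alone would give, and the coefficient of variation was 1.03%. Among the 820 features whose SW480-KD1 mean was within 1.2-fold of that of LCN2, the median coefficient of variation was 10.3%, and 0.854% of these features varied less than LCN2. In SW480-NC the SD of 34.8 exceeded the counting error of 12, with a coefficient of variation of 24.8% against a median of 14.5% over 779 features of like level. The library that set the SW480-NC spread was replicate 2, the lowest of the 6. Without it the log2 fold change was 1.15, and without SW480-NC replicate 1 it was 1.51.

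Per kilobase of annotated exon, LCN2 was a gene of middling level. It had 223 normalized counts per kilobase in SW480-KD1 and 87.7 in SW480-NC, above 61.4% and 42.3% of the 12622 tested Ensembl genes with an annotated length. On the same scale HPSE had 32.1 in SW480-KD1 and 57.2 in SW480-NC. The other 7 genes measured were far lower, at 11.4 or less per kilobase in both lines.

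The acute-phase serum amyloids were at or near 0 reads. SAA1 (ENSG00000173432) had 1 read in SW480-NC replicate 2 and 0 in the other 5 libraries. SAA2 (ENSG00000134339) had 2, 0 and 0 reads in SW480-KD1 and 2, 3 and 0 in SW480-NC. A count of 0 allows up to 3 reads, or 2.71 to 3.18 normalized counts in these libraries, so neither gene could be compared at this depth. The longest open reading frames of the 2 genes are 369 bases each and identical at 97.0% of positions, so a read could also have been given to the wrong copy.

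C3, the central protein of the complement cascade, was detected in few reads. C3 (ENSG00000125730; chromosome 19, 6677704 to 6730562) had 5, 10 and 6 reads in SW480-KD1 and 2, 0 and 0 in SW480-NC. All SW480-KD1 libraries lay above the SW480-NC libraries, as in 4.15% of the 28517 features with a mean of 1 to under 10 normalized counts. The ratio per unit of depth was 9.88, with a 95% counting interval of 2.42 to 87.0 that rests on 2 control reads. That interval leaves out the spread between libraries. With no filter on low values, limma gave C3 an adjusted p of 0.437.

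PIGR, which carries IgA and IgM across the epithelium, showed the same order. It had 15, 7 and 17 reads in SW480-KD1 and 5, 0 and 3 in SW480-NC, or 15.8, 6.32 and 16 against 5.23, 0 and 3.18 normalized counts. The lines did not overlap, although SW480-KD1 replicate 2 was close to SW480-NC replicate 1. The ratio was 4.59, with a 95% counting interval of 2.11 to 11.4. The interval covers counting error and not the spread between libraries. With no filter on low values, limma gave PIGR an adjusted p of 0.478. Without SW480-NC replicate 2, which had 0 reads of PIGR, the difference on log2(normalized count + 1) went from 2.11 to 1.33. Of the 28517 features with a mean of 1 to under 10 normalized counts, where 6 of the 10 genes fall, 4.15% had all SW480-KD1 libraries above all SW480-NC libraries.

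SLPI, a secreted inhibitor of neutrophil elastase, had 0, 5 and 4 reads in SW480-KD1 and 5, 0 and 3 in SW480-NC. Both lines thus ranged from 0 to 5 reads. The ratio was 1.06, and its 95% counting interval of 0.363 to 3.15 spans a ratio of 1. Its difference on log2(normalized count + 1) changed sign with the library left out, from −0.78 without SW480-NC replicate 2 to 0.79 without SW480-KD1 replicate 1.

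S100A8 and S100A9, the subunits of calprotectin, lie near each other on chromosome 1. S100A8 had 2, 6 and 3 reads in SW480-KD1 and 1, 2 and 4 in SW480-NC, and S100A9 had 3, 9 and 9 against 0, 8 and 3. The lines overlapped for both subunits. The ratios were 1.48 (95% counting interval 0.524 to 4.5) for S100A8 and 1.80 (0.828 to 4.13) for S100A9. Single libraries decided these values. The difference of S100A9 on log2(normalized count + 1), 1.10 over all libraries, fell to 0.24 when SW480-NC replicate 1 was left out. Leaving out SW480-NC replicate 2 instead gave 1.80. That of S100A8, 0.43 over all libraries, ran from 0.11 without SW480-NC replicate 1 to 0.79 without SW480-NC replicate 3.

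Over these 7 genes together, the SW480-KD1 libraries held 27, 37 and 39 reads and the SW480-NC libraries 15, 14 and 13. Without C3 and PIGR the sums were 7, 20 and 16 against 8, 14 and 10 and overlapped. No gene of the 7 exceeded 17 reads in a library, whereas LCN2 had at least 104.

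To set LCN2 among the genes around it, 8 lists of related genes were read from the same fit. Of their 171 genes, 108 had a row and 89 could be tested. The test called 2 of the 89 (2.25%), both higher in SW480-KD1, against 0.802% of all features. An unadjusted p under 0.05 was found for 31 of the 89 (34.8%), against 16.2% of all features, and these lists were chosen with earlier results known. All features include assembler loci without a gene symbol, so the shares of all features, here and below, have an unlike base. edgeR's quasi-likelihood test called the same 2 genes and no other, and 136 of all 21703 features. DESeq2 called 13 of the 89 (8 higher and 5 lower in SW480-KD1), and it also called more of all features, 767 of 21703. The DESeq2 calls given below are to be read beside that count. The median log2 fold change of the lists ran from −0.08 for iron handling to 0.17 for antimicrobial and oxidase genes, beside −0.005 over all features.

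One of the called genes belongs to iron handling, the process in which lipocalin 2 acts. STEAP4, a metalloreductase that reduces iron and copper, had 761, 775 and 878 normalized counts in SW480-KD1 and 528, 454 and 479 in SW480-NC. Its libraries did not overlap, and it rose by a log2 fold change of 0.72 (limma, SE 0.11, adjusted p = 0.0388). The call was lost in every fit that left out 1 library, with an adjusted p of 0.0696 to 0.136 from limma, while the estimates ran from 0.66 to 0.78 on the log2 scale. The other 15 tested genes of this list did not pass in limma. Ferroportin (SLC40A1), the iron exporter, had a log2 fold change of −0.39 (limma, adjusted p = 0.0814), and HEPH, the ferroxidase that works with it, −0.60 (limma, adjusted p = 0.0626). These 2 were chosen after their values were seen, and DESeq2 called both lower. limma called HEPH as well with no filter on low values, with the filter raised to 50 normalized counts and with robust variance estimates. The transferrin receptor TFRC had a log2 fold change of −0.24 and the ferritin chains FTH1 and FTL 0.10 and 0.30, none of them called. The LCN2 receptors SLC22A17 and LRP2 were not analysed here.

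The other called gene was an S100 gene. S100P, a calcium-binding protein expressed in many carcinomas, had 3667, 3805 and 3589 normalized counts in SW480-KD1 and 2218, 2365 and 2642 in SW480-NC. It rose by 0.62 on the log2 scale (limma, SE 0.08, adjusted p = 0.0333), with no overlap of libraries. Its adjusted p ran from 0.0293 to 0.126 in the limma fits that left out 1 library, and it was called in 1 of these 6. Of the other 5 tested S100 genes none was called, with S100A10 at −0.27, S100A11 at −0.35 and S100A14 at 0.39 on the log2 scale. These log2 fold changes lay on both sides of 0.

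None of 14 tested cytokine and toll-like receptor genes passed in limma or edgeR, and 2 (14.3%) had an unadjusted p under 0.05 in limma, near the 16.2% of all features. IL6R, the receptor of IL-6, a main inducer of the acute phase, had 105, 76.8 and 77.3 normalized counts in SW480-KD1 and 123, 376 and 289 in SW480-NC. The IL6R libraries did not overlap. Of the 21703 features tested, 2598 had all SW480-KD1 libraries below all SW480-NC libraries. The SW480-NC libraries of IL6R were far apart. Its log2 fold change was −1.46 with a standard error of 0.39 (limma, adjusted p = 0.138). IL6R passed without SW480-NC replicate 1, with an adjusted p of 0.0382 from limma, and those fits ranged up to 0.335. DESeq2 called it, the 1 call of this list, with an adjusted p of 0.000519. Its partner IL6ST had a log2 fold change of −0.23 (limma, adjusted p = 0.289). The IL-17 and IL-22 receptor chains IL17RA and IL22RA1 were expressed in both lines. The means in SW480-KD1 and SW480-NC were 906 and 873 normalized counts of IL17RA and 787 and 856 of IL22RA1. IL10RB, also on this list, was not analysed here.

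Among 19 tested transcription factors of these genes none passed in limma or edgeR, and 6 (31.6%, against 16.2% of all features) had an unadjusted p under 0.05 in limma. NFKBIZ, the NF-kappa-B cofactor needed for LCN2 induction, had 2355, 1880.3 and 2067 normalized counts in SW480-KD1 and 2741, 2693 and 2837 in SW480-NC. Its log2 fold change was −0.40 (limma, adjusted p = 0.116), with no overlap of libraries. Any part of NFKBIZ in the LCN2 difference was not tested. NFKB1, the p50 subunit, was at −0.29 (limma, adjusted p = 0.140). STAT3 was at 0.04, CEBPB at 0.24 and ATF3 at 0.86, each short of the threshold in limma. DESeq2 called NFKBIZ lower (adjusted p = 0.0356) and ATF3 higher.

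Of the complement list, 9 genes could be tested and none passed in limma or edgeR, while DESeq2 called 1 higher. In limma, 1 (11.1%, against 16.2% of all features) had an unadjusted p under 0.05. Clusterin (CLU), which blocks the terminal complement complex, had a log2 fold change of −0.28 (limma, adjusted p = 0.311). CD46, a membrane cofactor for the inactivation of C3b, had means of 5682 normalized counts in SW480-KD1 and 6177 in SW480-NC.

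Other acute-phase proteins were mostly near 0, and none of the 6 tested passed in limma or edgeR. In limma, 2 (33.3%, against 16.2% of all features) had an unadjusted p under 0.05. TTR, which falls in the acute phase of the liver, had 44.3, 74.1 and 66.9 normalized counts in SW480-KD1 and 115, 153 and 125 in SW480-NC (limma log2 fold change −1.09, adjusted p = 0.0970). FGL1, a hepatokine induced by IL-6, was at 0.44 (limma, adjusted p = 0.0979). DESeq2 called TTR lower (adjusted p = 0.00573) and FGL1 higher (adjusted p = 0.0162). SERPINA1, the gene of alpha-1 antitrypsin, was abundant, with means of 18179 and 19914 normalized counts and a log2 fold change of −0.13.

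Of 11 tested antimicrobial and oxidase genes, none passed in limma or edgeR, and 6 (54.5%, against 16.2% of all features) had an unadjusted p under 0.05 in limma. NOX1, the superoxide-producing oxidase of colon epithelium, had 897, 872 and 973 normalized counts in SW480-KD1 and 570.1, 472 and 659.5 in SW480-NC. Its log2 fold change was 0.70 (limma, SE 0.13, adjusted p = 0.0777). Its activator NOXA1, chosen after its value was seen, had the highest log2 fold change of the list, 1.5 (limma, SE 0.39, adjusted p = 0.134). NOX1 passed with robust variance estimates (limma, adjusted p = 0.0451), with no filter on low values (limma, 0.0391) and in DESeq2 (0.000769), which also called NOXA1. DUOX2 was at 0.72, its maturation factor DUOXA2 at 0.81 and WFDC2 at 0.75, while the phospholipase PLA2G2A was lowest at −0.86 and the elastase inhibitor PI3 at −0.40, none of them called by limma, edgeR or DESeq2. Lysozyme (LYZ), the most abundant gene of the list by counts, had 62020.2, 59444 and 62190.0 normalized counts against 69669, 71955 and 67163 and a log2 fold change of −0.18 (limma, adjusted p = 0.133).

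None of 8 tested genes of nitric oxide and arginine metabolism passed in limma or edgeR. In limma, 2 (25.0%, against 16.2% of all features) had an unadjusted p under 0.05. ASS1, which regenerates arginine, was at 0.41 (limma, adjusted p = 0.140), and NOSIP, which binds nitric oxide synthases, at 0.21 (limma, adjusted p = 0.303). DESeq2 called ASS1 higher with an adjusted p of 0.0462.

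Across the 6 libraries, the genes whose values followed LCN2 most closely were CACNG4, SLC6A9, AGAP2, VIM and NR4A1, in that order. Pearson's r of log2(normalized count + 1) was 0.9987 for CACNG4 and 0.9935 for NR4A1, among the 9703 genes with a symbol and 50 or more normalized counts on average. This likeness is a description over 6 libraries that share the division into 2 cell lines, and 321 of these genes (3.31%) had an r above 0.9. CACNG4, a regulatory subunit of calcium channels and glutamate receptors, had 196, 184 and 186 normalized counts in SW480-KD1 and 108, 73.4 and 104 in SW480-NC. The glycine transporter SLC6A9 had 771, 747 and 760.3 against 469.7, 373 and 468. In all 5 genes, as in LCN2, the lowest library was SW480-NC replicate 2 and the SW480-KD1 libraries lay close together. This follows from choosing them by r with LCN2 over these same libraries, so nothing further is read from it. Their log2 fold changes, from 0.55 for VIM to 1.00 for CACNG4, were smaller than that of LCN2.

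The cells carried the markers of colon epithelium. Of 9 such markers, 7 had a row and all 7 were expressed, and their summed level was 112558 to 120950 normalized counts in SW480-KD1 and 130743 to 138219 in SW480-NC. Most of this sum was KRT8, with a mean of 81461 normalized counts over the 6 libraries, so the sum mainly follows 1 keratin. KRT20 and LGR5 were the 2 of the 7 with an adjusted p under 0.05 from limma, against 0.802% of all features. The part of these marker differences in the results above was not tested. LCN2, S100A8 and S100A9 are also neutrophil genes and SAA1, SAA2, C3 and CFB liver genes. Of the blood and neutrophil markers, 5 of 10 had a row, with sums of 281 to 368 in SW480-KD1 and 301 to 409 in SW480-NC, mostly of ITGAM, while MPO and FCGR3B had means under 1. Of the 5 hepatocyte markers, 3 had a row, with sums of 9.93 to 12.2 and 7.42 to 22. Of the 6 fibroblast markers, 3 had a row, with sums of 276 to 386 and 229 to 264, mostly of COL1A1, and none of the markers tested in these 3 lists was called.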

How the data were processed

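RNA of SW480-KD1 and SW480-NC cells (3 libraries each) was sequenced on an Illumina platform. The authors deposited normalized counts, a signal scale on which each library's gene counts share 1 divisor (its size factor). The submitters' processing notes name bcl2fastq, HISAT2, DESeq2 and GRCh38, and the paper names Cuffdiff. The counting tool and versions are not given in the sources used here. Dividing by the smallest step of each library gave whole reads for 100% of values (tolerance 0.01). Features comprise 25927 Ensembl identifiers, of which 25595 gave a symbol, and 33265 assembler loci, which can hold reads of genes with no row of their own.

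Log2(normalized count + 1) was tested with limma 3.58.1 (R 4.3.3), using its intensity trend and adjusting p by Benjamini-Hochberg, over 21703 features with a mean of at least 10. edgeR 4.0.16 and DESeq2 1.42.0 on recovered reads were alternatives, and the scripts were tested on simulated data. The members and lists were chosen with earlier results of these data known. Named genes are the 10 members, HPSE, list genes with an adjusted p under 0.05 (otherwise the 2 of smallest p) and the 5 genes with the highest r to LCN2. Other list genes named were chosen after their values were seen. One gene that the rule would name is not reported here. Replicates of a line differed beyond sampling noise (chi-square per gene 17.8 to 22.4). Counting intervals are 95% exact binomial and cover counting error only. Figures were drawn with matplotlib 3.10.9.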

Additional observations from a re-analysis of the deposited data

How the results depend on the processing

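LCN2 kept its direction in all alternatives, with a log2 fold change of 1.32 to 1.38, and 1.15 to 1.51 when each library was left out. The number of members past the threshold counts LCN2 alone, which was chosen by these values, so it is no test and nothing is read from it. It was 1, and 0 without an intensity trend, 0 with the replicate block and 0 to 1 with a library left out. Over all features, 174 were called (72 higher, 102 lower in SW480-KD1). The count was 11 without an intensity trend, 12 with the replicate block, 767 in DESeq2 (406 higher, 361 lower) and 36 to 104 with a library left out, where the lowest was without SW480-NC replicate 2. Of the related lists, 2 genes were called, 4 with no filter, 0 without a trend, 4 with robust variance estimates, 0 with the replicate block, 13 in DESeq2 and 0 to 1 with a library left out. HPSE, at −0.83 and short of the threshold, passed it with no filter (−0.83, adjusted p = 0.0451 from limma), with a mean of at least 50 (−0.83), with robust estimates (−0.83) and in DESeq2 (−0.83). Its adjusted p ranged from 0.000924 (DESeq2) to 0.169 (limma with the replicate block) over the alternatives that kept all libraries. With a library left out it was not called in limma, with an adjusted p of 0.0734 to 0.188 and a log2 fold change from −0.93 to −0.76. The cause of these changes was not tested. Same-numbered libraries did not deviate together (correlations of their deviations 0.00246, −0.0202 and 0.00741), so the replicate block rests on a number only. At this depth the 7 low members rest on 17 reads or fewer per library, and a pseudocount of 5 lowered the log2 difference of C3 from 2.36 to 1.04 and of PIGR from 2.11 to 1.19.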
